A study of Rattus norvegicus with 7 samples.

Results

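Myelin and oligodendrocyte lineage genes were followed in cultures of rat hippocampal astrocytes and neurons exposed to grape seed extract, which contains polyphenols. The set held Mbp, Mobp, Pmp22, Mag, Mog, Cnp, Ugt8, Sox10 and Cspg4, and it took every probe set that the platform annotation gives to those symbols. All 9 genes were on the array, among 4736 named genes, with 17 of the 8740 probe sets that are not controls. RNA came from primary cultures of Wistar rats, labelled as 17 days old without saying whether before or after birth. Astrocytes received 0, 1, 10 or 100 µg/ml of the extract and neurons 0, 1 or 10 µg/ml for 24 h, and 1 Affymetrix array was hybridised for each of these 7 combinations. All cultures shared a defined medium (DMEM with glutamine, N1 supplement and antibiotics), and the labels give neither the purity of the cultures nor how the glia were prepared. No combination was repeated, so a value at a single dose has no error. The spread used in tests is that between arrays of 1 cell type at different doses, and it may be partly technical.

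Myelin is the lipid-rich sheath that oligodendrocytes wrap around axons in the central nervous system, and Schwann cells in peripheral nerve. Mbp and Mobp lie on the cytoplasmic faces of the compacted membrane, Mag and Mog on its inner and outer surfaces, Cnp in the uncompacted cytoplasm, and Ugt8 makes the galactolipids of the sheath. Sox10 is a transcription factor of the lineage from precursor to myelinating cell, and Cspg4 (NG2) is a proteoglycan of the precursors that pericytes carry as well. Pmp22 is a membrane protein of peripheral myelin that fibroblasts and other cells also make.

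The labels were first set against markers of the cell types such cultures can hold. All 8 tested neuron markers were lower in astrocytes, with Nefl at -5.69, Gap43 at -5.06 and Snap25 at -4.59 log2, where arrays under the signal floor of 17.9 make the values of Nefl and Snap25 bounds. Syt1 and Gad2 were under that floor on every astrocyte array and above it on every neuron array, and Slc17a7 was under it on all 7 arrays and tells nothing of cell type. Of 10 tested astrocyte markers 3 were higher in astrocytes (S100b at 1.96, Agt at 1.59, and Sparcl1) and 2 were lower (Slc1a3 at -1.79, and Aqp4). Markers of fibroblasts and meninges were higher in astrocytes in 10 of 13 and lower in 1, and those of microglia and macrophages in 6 of 8 (limma, adjusted p below 0.05). Of all tested probe sets 12.2% were higher and 18.0% lower. Testing required a mean log2 signal above the median of all signals (79.9) in either cell type. Only 7 of the 13 fibroblast and meningeal markers reached this in neurons, and only 5 of the 8 neuron markers in astrocytes. Some markers thus entered through 1 cell type alone, and these counts are descriptions. The signal scale was set by the authors, and the median signal was 65.4 to 84.1 on the astrocyte arrays and 84.6 to 87.7 on the neuron arrays.

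The upstream sequences of 4 members are shown for letters that bind SOX factors, since Sox10 is in the set. Sox10 itself was not called between the cultures, and a link from it to the other members was not tested. The sequences are the 250 bases before the RefSeq start in the build GRCr8, 5′ to 3′ on the gene's strand. The letters ACAAAG or ACAATG, or their reverse complements, are in capitals.
Mobp, chr8:128746982-128747231, plus strand: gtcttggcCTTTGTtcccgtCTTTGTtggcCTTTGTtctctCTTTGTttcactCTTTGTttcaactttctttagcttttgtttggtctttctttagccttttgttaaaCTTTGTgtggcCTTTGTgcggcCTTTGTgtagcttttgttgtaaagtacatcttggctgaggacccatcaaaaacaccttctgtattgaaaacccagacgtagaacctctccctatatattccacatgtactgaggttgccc
Cnp, chr10:86011254-86011503, plus strand: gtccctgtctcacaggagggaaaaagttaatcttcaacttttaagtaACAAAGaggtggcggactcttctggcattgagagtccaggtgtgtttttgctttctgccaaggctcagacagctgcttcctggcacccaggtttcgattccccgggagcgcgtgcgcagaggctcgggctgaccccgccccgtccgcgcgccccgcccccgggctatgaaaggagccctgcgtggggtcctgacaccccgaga
Mag, chr1:95291045-95291294, minus strand: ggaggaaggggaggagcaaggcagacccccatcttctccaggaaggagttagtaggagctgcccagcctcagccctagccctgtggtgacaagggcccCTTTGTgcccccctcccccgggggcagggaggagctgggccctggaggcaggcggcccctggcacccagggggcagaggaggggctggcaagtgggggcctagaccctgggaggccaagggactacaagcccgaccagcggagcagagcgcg
Pmp22, chr10:48294682-48294931, plus strand: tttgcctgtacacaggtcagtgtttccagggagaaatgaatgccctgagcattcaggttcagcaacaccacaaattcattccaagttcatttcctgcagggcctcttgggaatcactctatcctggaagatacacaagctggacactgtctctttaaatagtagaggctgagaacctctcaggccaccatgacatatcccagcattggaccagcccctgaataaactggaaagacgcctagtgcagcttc
The Mobp window held 8 matches, all to CTTTGT, the reverse complement of ACAAAG, in a T-rich stretch. Only 2 of 33469 RefSeq windows, that of Mobp included, held at least as many. Cnp and Mag held 1 match each, 1 of the 2 Mbp windows held 3 and the other none, and the windows of Pmp22, Ugt8 and Cspg4 held none. At least 1 match was found in 25.3% of all windows, and a match of this kind is a description of letters and not evidence of binding.

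The comparison of cell types asked how much of each transcript the astrocyte and neuron cultures held. Of the 17 member probe sets, 12 had every astrocyte array above every neuron array, as did 11.5% of all probe sets, 1 (Cspg4) had every neuron array above every astrocyte array, and 4 overlapped. The neuron-above and overlapping classes were not counted over all probe sets, so their member counts are descriptions. A probe set was tested if its mean log2 signal in either cell type was above the median of all signals (79.9). This admitted 9 member probe sets of 7 genes, 4 of them through their astrocyte signals alone, so the count among them is a description. Of these 9, 8 probe sets of 6 genes were higher in astrocytes at an adjusted p below 0.05 (limma over 4709 probe sets), against 12.2% of all probe sets higher and 18.0% lower. With no signal filter all 17 were tested among 8740, and 8 were called higher and none lower, against 5.96% of all probe sets called higher. The share of all probe sets called lower in that fit was not counted, so the absence of lower calls is a description. The median log2 difference over the 17 was 1.05, and over all 8740 it was 0.00.

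Mbp had the largest fitted difference of the set, also with no floor (6.08 log2, against 5.09 for the brightest Mobp probe set), although floored neuron signals leave Mobp a minimum. Its probe set gave 3895, 3232, 3378 and 5222 in astrocytes at 0, 1, 10 and 100 µg/ml, and 49.8, 51.3 and 72.3 in neurons at 0, 1 and 10 µg/ml. Every astrocyte array thus lay far above every neuron array, and the neuron signals lay between the floor and the median of all signals. The mean was 3932 ± 906 (SD, n = 4 arrays) in astrocytes and 57.8 ± 12.6 (SD, n = 3 arrays) in neurons. The log2 difference was 6.08 ± 0.23 (SE), or 67.8-fold, with an adjusted p of 1.66e-06 (limma).

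Mobp, the other cytoplasmic myelin protein, was also high in astrocytes and at or near the floor in neurons. Its brightest probe set gave 268, 262, 257 and 166 in astrocytes at 0, 1, 10 and 100 µg/ml, and 9.2, 6.9 and 5.1 in neurons at 0, 1 and 10 µg/ml. All 3 neuron signals were under the floor and were raised to it, so the fitted difference of 3.71 log2 makes Mobp at least 13.1-fold higher in astrocytes (adjusted p = 1.36e-05, limma). A second probe set gave 176, 118, 145 and 122 against 13.0, 20.7 and 8.5, with 2 neuron arrays under the floor, and was at least 7.36-fold higher (adjusted p = 3.35e-05, limma). The remaining 2 probe sets of Mobp were dim, at 9.5 to 60.3 in astrocytes and 1.4 to 9.8 in neurons. They kept the same order of cell types and did not pass the signal filter.

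Pmp22 was measured at a similar order of signal in both cultures, and its difference was small. Its bright probe set gave 2785, 2540, 1710 and 2789 in astrocytes at 0, 1, 10 and 100 µg/ml, and 1579, 1530 and 1554 in neurons at 0, 1 and 10 µg/ml. The astrocyte array at 10 µg/ml stood close above the neurons, and the others were clearly higher. The log2 difference of 0.63 ± 0.19 (SE) passed at an adjusted p of 0.0371 (limma). This call was lost without any single neuron array (adjusted p of 0.107, 0.115 and 0.108 without the arrays at 0, 1 and 10 µg/ml), without either astrocyte array of the lowest doses, 0 and 1 µg/ml (0.0782 and 0.0813), and with no signal filter (0.0848). The dim second probe set gave 41.2 to 64.3 in astrocytes and 38.1 to 75.8 in neurons, which overlapped.

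**Figure D1:**
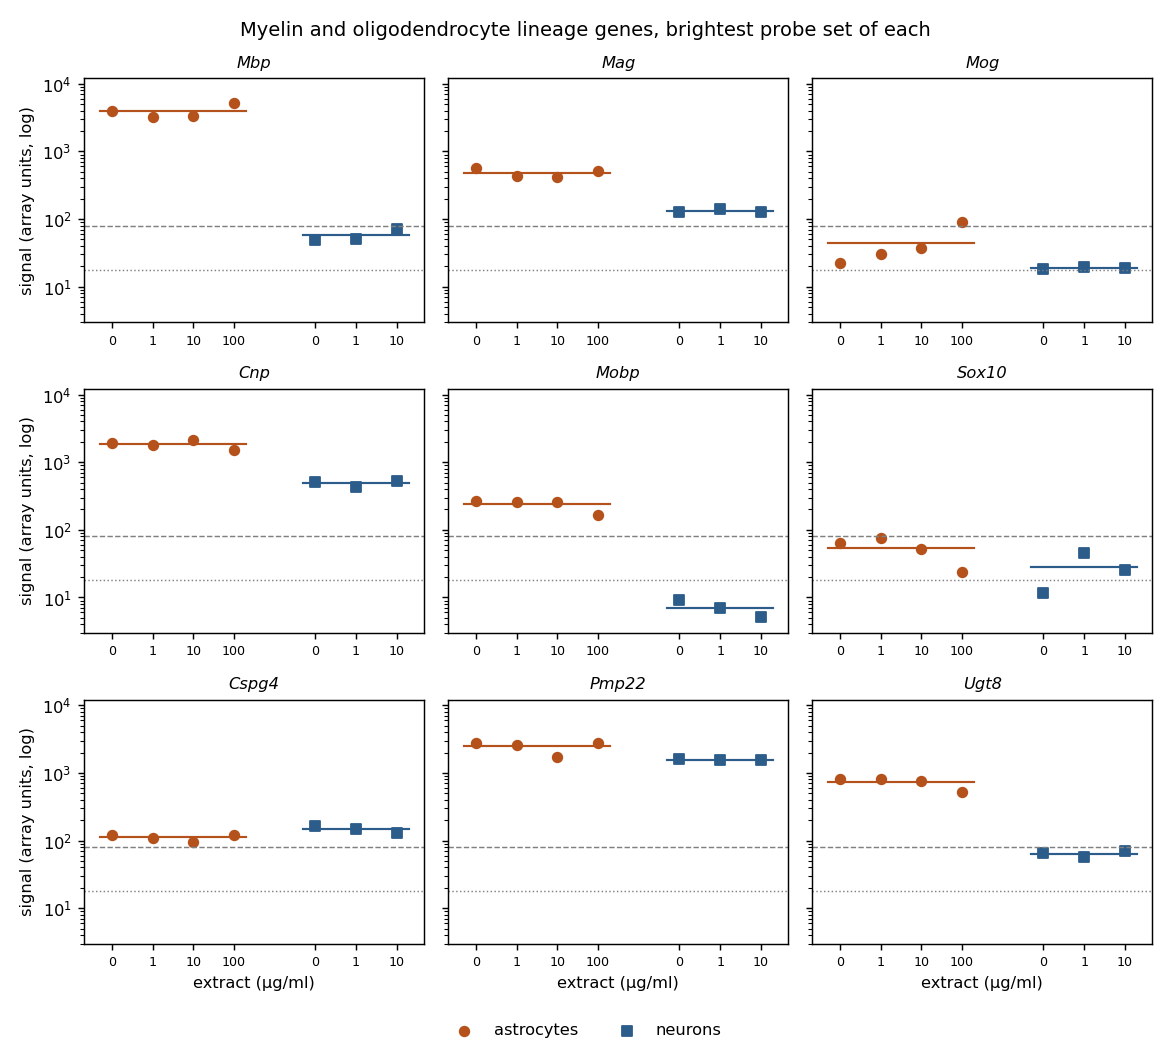
Signal of the brightest probe set of each member on each array (log axis), by dose, with astrocytes (circles) left of neurons (squares). Horizontal bars are the mean over the arrays of a cell type, the dotted line is the floor of 17.9 and the dashed line the median of all signals, 79.9; Mbp, Mobp and Ugt8 show the widest separation and Cspg4 lies higher in neurons.

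Of the surface proteins, Mag, an adhesion molecule facing the axon, was higher in astrocytes at both of its bright probe sets. The brightest gave 578, 434, 418 and 506 in astrocytes at 0, 1, 10 and 100 µg/ml, and 127, 141 and 126 in neurons at 0, 1 and 10 µg/ml. The neuron signals of Mag thus lay above the median of all signals, unlike those of Mbp or Mobp. The log2 difference was 1.87 ± 0.18 (SE), or 3.65-fold (adjusted p = 0.000177, limma). The other bright probe set gave 516, 383, 374 and 395 against 38.5, 124 and 110, a log2 difference of 2.36 ± 0.40 (SE) with an adjusted p of 0.00341 (limma). The third stayed under the floor on all 7 arrays and gave no comparison.

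Mog, of the outermost myelin surface, was dim everywhere and passed the signal filter in neither cell type. One probe set gave 44.9, 48.7, 42.9 and 48.3 in astrocytes at 0, 1, 10 and 100 µg/ml, and 5.1, 2.6 and 1.6 in neurons at 0, 1 and 10 µg/ml. Its neuron signals were all under the floor. When every probe set was tested, this one was higher in astrocytes by 1.37 log2 or more (adjusted p = 4.71e-05, limma with no signal filter). The other probe set of Mog gave 22.4, 30.2, 37.9 and 89.2 against 18.2, 19.8 and 18.7, and was not called (adjusted p = 0.24).

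The 2 enzymes of the set were both higher in astrocytes. Cnp, which hydrolyses cyclic nucleotides, gave 1933, 1770, 2129 and 1532 in astrocytes at 0, 1, 10 and 100 µg/ml, and 502, 436 and 529 in neurons at 0, 1 and 10 µg/ml. Neurons thus also gave a signal well above the median of all signals. The log2 difference for Cnp was 1.91 ± 0.16 (SE), or 3.75-fold (adjusted p = 8.04e-05, limma). Ugt8, which transfers galactose to ceramide, gave 801, 818, 754 and 522 in astrocytes, and 65.9, 57.0 and 69.1 in neurons, in the same order of doses. Its log2 difference was 3.48 ± 0.21 (SE), or 11.2-fold (adjusted p = 1.54e-05, limma). A second Ugt8 probe set stayed close to the floor, at or below 20.2 in astrocytes and 23.2 in neurons, and the cell types overlapped.

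The lineage genes gave no call. Sox10 gave 64.4, 74.5, 52.9 and 24.2 in astrocytes at 0, 1, 10 and 100 µg/ml, and 11.6, 46.1 and 25.8 in neurons at 0, 1 and 10 µg/ml. The 2 cell types overlapped, since the astrocyte array at 100 µg/ml lay below 2 of the neuron arrays, and no array reached the median of all signals. Cspg4 gave 122, 108, 95.1 and 121 in astrocytes, and 165, 147 and 129 in neurons, in the same order of doses. It was the only member whose neuron arrays all lay higher, and its log2 difference of -0.40 ± 0.19 (SE) did not pass (adjusted p = 0.145, limma).

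**Figure D2:**
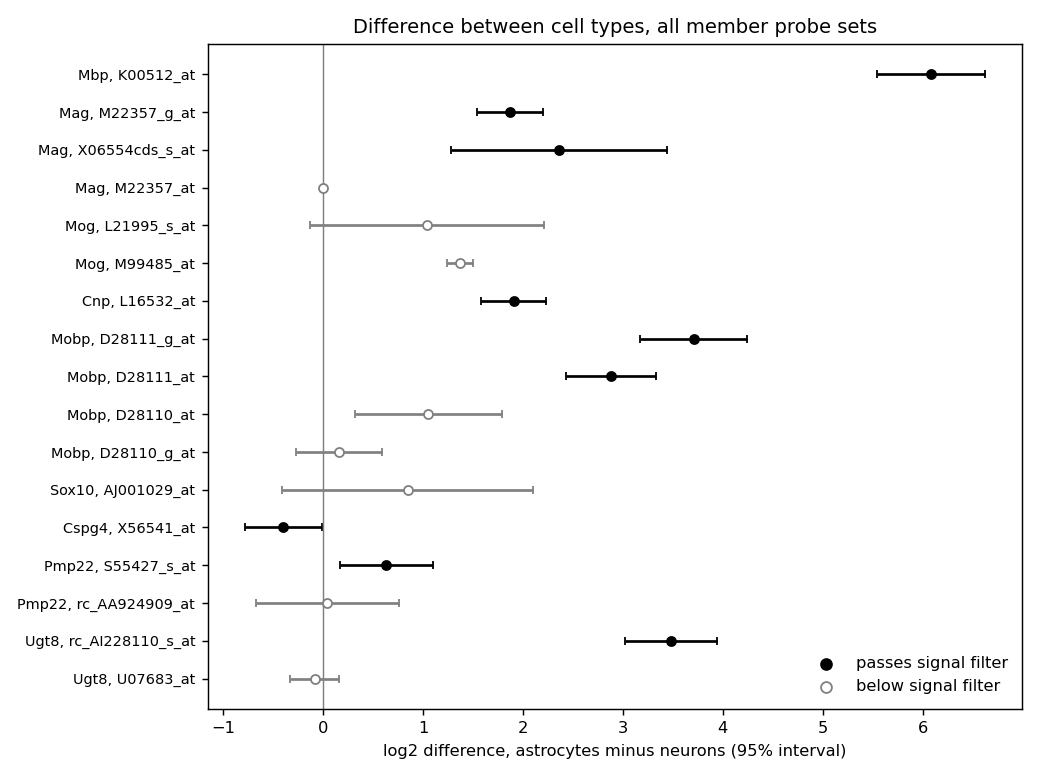
Log2 difference, astrocytes minus neurons, for all 17 member probe sets with 95% intervals, from the fit with no signal filter. Filled points pass the signal filter and open points do not. The Mbp probe set reaches 6.08 and that of Cspg4 lies at -0.40, and the Mag probe set under the floor on all arrays is drawn at 0 with no meaningful interval.

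Ordered by the fitted difference, Mbp at 6.08 stood apart from the rest, followed by Mobp and Ugt8 at 3.71 and 3.48, whose 95% intervals overlapped (3.19 to 4.22 and 2.99 to 3.97). Cnp and Mag at 1.91 and 1.87 also had overlapping intervals (1.54 to 2.27 and 1.45 to 2.28), and Pmp22 and Cspg4 were lowest. The floor makes the place of Mobp a minimum, and with no floor its brightest probe set gave 5.09. In whole cultures, more cells of a type and more RNA per cell cannot be told apart.

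Other genes of myelin and the lineage were taken from 4 lists of 48 genes, of which 15 were on the array. Of 12 tested, 4 were higher in astrocytes and 1 was lower, against 12.2% and 18.0% of all probe sets. Enpp6 entered through its astrocyte signals alone and Car2 through its neuron signals alone, so the count is a description. Enpp6, a choline phosphodiesterase of newly formed oligodendrocytes, gave 98.2, 127, 116 and 103 in astrocytes at 0, 1, 10 and 100 µg/ml, and 3.1, 2.7 and 1.8 in neurons at 0, 1 and 10 µg/ml. All of its neuron signals were under the floor, and it was at least 6.17-fold higher in astrocytes (adjusted p = 2.3e-05, limma). Myrf, a transcription factor that drives myelin genes, gave 1172, 1250, 1308 and 1037 against 295, 328 and 397, a log2 difference of 1.82 ± 0.16 (SE) with an adjusted p of 0.00013 (limma). Both thus separated the cultures in the direction of Mbp.

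Enpp2, or autotaxin, a secreted phosphodiesterase of oligodendrocytes that choroid plexus and meningeal cells also make, gave 1586, 1468, 1396 and 1185 in astrocytes at 0, 1, 10 and 100 µg/ml, and 226, 242 and 278 in neurons at 0, 1 and 10 µg/ml. It was 5.66-fold higher in astrocytes (adjusted p = 2e-05, limma), and its second probe set differed by 2.04 log2 (adjusted p = 0.0027). Cd9, a tetraspanin of myelin and of many other membranes, differed by 0.79 ± 0.18 (SE, adjusted p = 0.0128, limma), and by 0.69 with an adjusted p of 0.0592 without the neuron array at 10 µg/ml. The second Cd9 probe set was also higher in astrocytes, by 1.025 log2 (adjusted p = 0.00617, limma). Car2, a carbonic anhydrase, was the gene that was lower, at 56.3, 82.5, 42.8 and 24.9 in astrocytes and 123, 122 and 142 in neurons (log2 difference -1.45, adjusted p = 0.0244, limma). That call was lost without any 1 neuron array (adjusted p of 0.0722 to 0.0887) as it was when the astrocytes at 10 µg/ml were left out (0.0622) or the signal filter was dropped (0.0802).

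Pdgfra, the growth factor receptor of the precursors and of fibroblasts, gave 3730, 4950, 7780 and 1232 in astrocytes at 0, 1, 10 and 100 µg/ml, and 1538, 1499 and 1540 in neurons at 0, 1 and 10 µg/ml. The astrocyte array at 100 µg/ml alone lay below the neurons, and the log2 difference of 1.26 did not pass (adjusted p = 0.124, limma). Without that array it was 1.78 with an adjusted p of 0.000649. The 3 other Pdgfra probe sets lay at or below 55.0 on all arrays, under the signal filter. With no filter, 1 of them was called higher in astrocytes, at 24.3 to 29.1 against 9.5 to 20.0 in neurons (adjusted p = 0.00628, limma). Another, at 41.8 to 55.0 against 35.4 to 36.8, was not called (adjusted p = 0.108), and the last was under the floor on every array. Sirt2, Gjb1, Psap, Id2, Qdpr and Cryab were not called at their brightest probe sets (adjusted p of 0.372 to 0.989), though a dimmer Psap probe set differed by 0.33 log2 (adjusted p = 0.0322, limma), and Mal, Erbb3 and Hes5 lay below the signal filter.

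**Figure D3:**
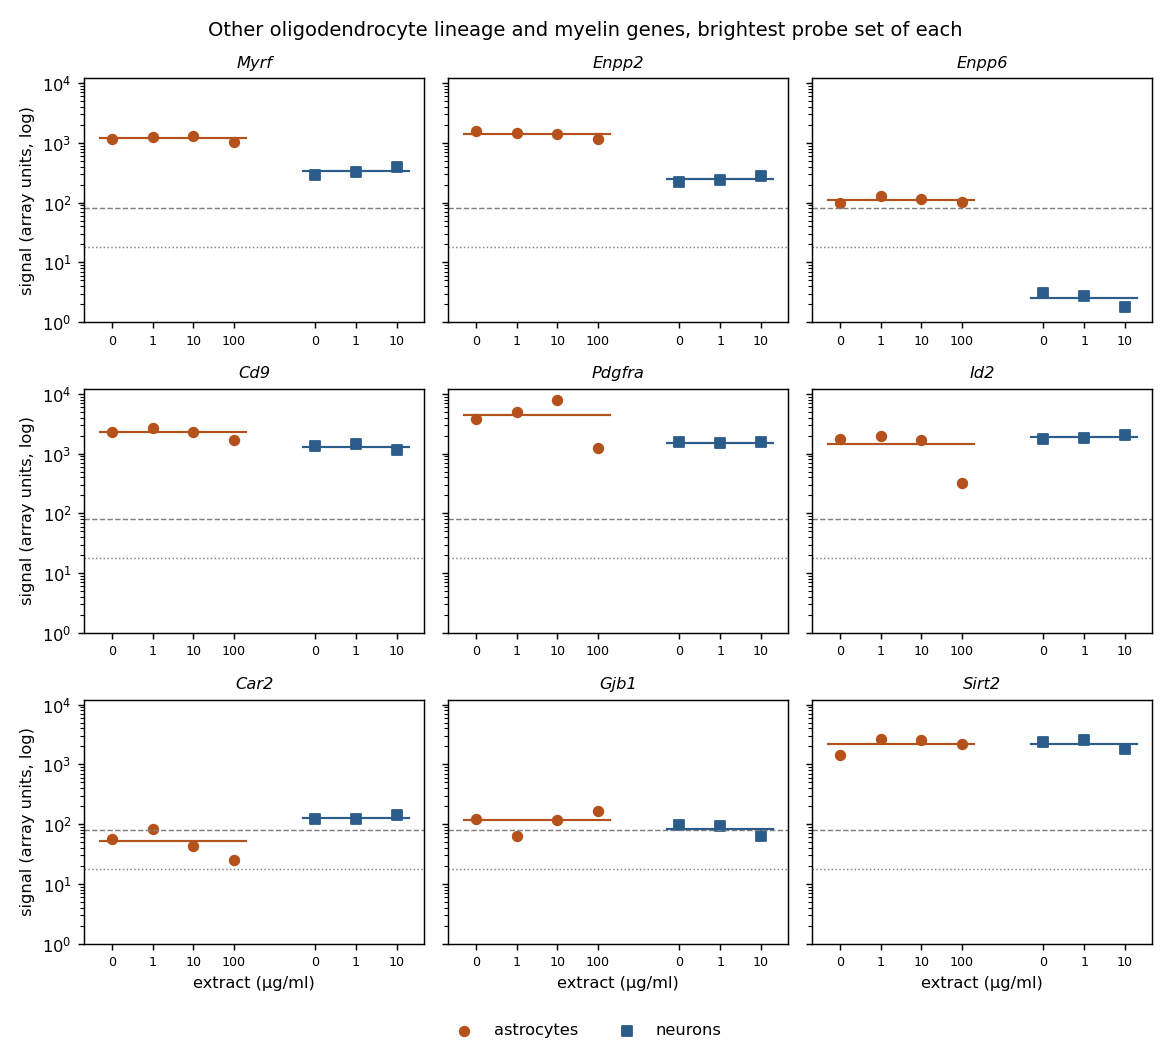
Signal of 9 other myelin and lineage genes on each array (log axis), by dose, with astrocytes (circles) left of neurons (squares), bars for the mean over the arrays of a cell type, and the floor (dotted) and median (dashed) of all signals. Enpp6, Enpp2 and Myrf lie higher in astrocytes on every array, and Pdgfra and Id2 have their lowest signals on the astrocyte array at 100 µg/ml.

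Summed over the brightest probe set of each gene, the 9 members gave 8832 to 10972 in astrocytes and 2435 to 2530 in neurons. The sum for 13 fibroblast and meningeal markers was 54716 to 69172 in astrocytes and 14929 to 17438 in neurons, with Igf2 (6.81 log2), Aldh1a2 (at least 6.71) and Crabp2 (at least 6.62) farthest apart. Neuron arrays under the floor make the values of Aldh1a2 and Crabp2 minima, so these 3 have no order. For 12 microglia and macrophage markers it was 12346 to 20160 and 3542 to 4284, with C1qb (3.43), Aif1 (2.36) and Cd53 (2.33) farthest apart and Itgam under the floor in every neuron array. Both lists were thus higher in astrocytes on every array, as the members were in sum, and their part in the result was not tested. Of the 5 Schwann cell markers on the array none was called higher in astrocytes. Pou3f1 was lower, with a fitted difference of -2.80 log2 that is a bound, since every astrocyte array was under the floor. Foxd3 was not called (0.24). Egr2, a transcription factor of myelinating Schwann cells, was not called either (-0.66), and its astrocyte arrays lay on both sides of the neurons, at 108, 95.1, 156 and 851 at 0, 1, 10 and 100 µg/ml, against 327, 258 and 336 in neurons at 0, 1 and 10 µg/ml. Their sum was 1307 to 2146 in astrocytes and 1456 to 1723 in neurons. The 10 endothelial and pericyte markers gave 1317 to 1837 in astrocytes and 2017 to 2154 in neurons, with Kdr lower (-2.55), Anpep higher (0.93), Abcc9 not called (-0.64) and Des under the floor on every neuron array and on 3 of 4 astrocyte arrays. The neuron list summed to 1038 to 2208 and 15599 to 16168, and the astrocyte list to 35300.0 to 40378 and 34690.3 to 35850.

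**Figure D4:**
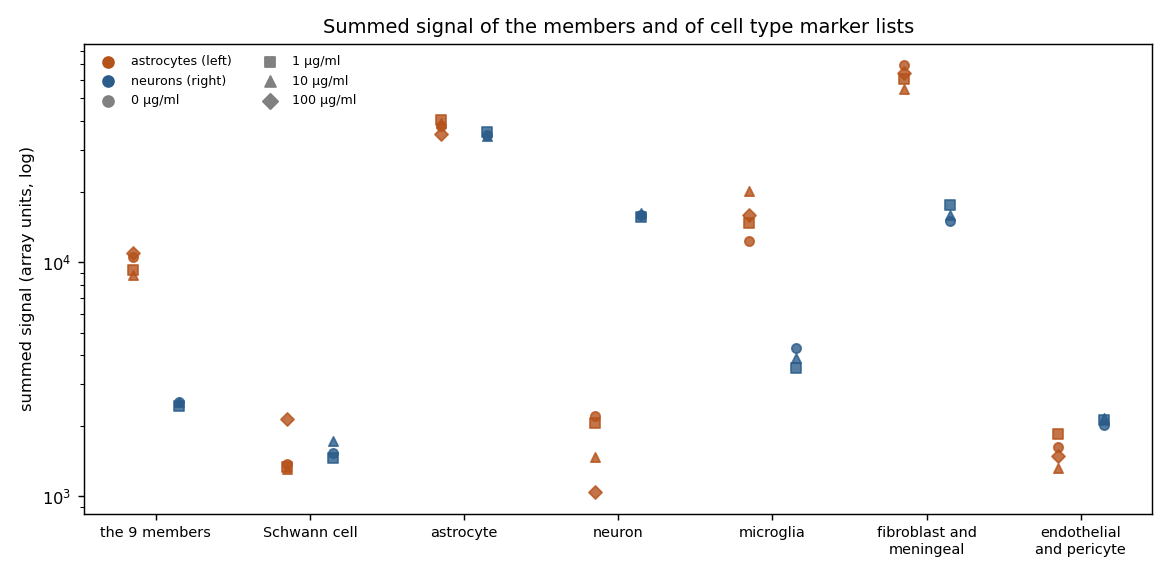
Summed signal of the 9 members and of 6 marker lists on each array (log axis), with astrocytes left of neurons and the marker shape giving the dose. The members, the microglia list and the fibroblast and meningeal list lie higher in astrocytes on every array, and the neuron list lies lower.

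The profiles most like each member were sought among 3966 probe sets with 1 symbol that passed the filter, by Pearson's r of log2 signal over the 7 arrays. These values mostly follow the step between the 2 cell types that all points share. For Mbp the nearest genes were Wfdc1, Aebp1 and Pcolce (r of 0.998 each), and for Mag Aebp1, Maob and Fcgrt (0.994 to 0.997). Cnp was nearest to Prrx1, S100a1 and Cfp (0.995 to 0.998). Mobp and Ugt8 were each other's nearest profile (0.999), followed by Slc6a20a and Cfp for Mobp and by Prrx1 and Cfp for Ugt8. Pmp22 was nearest to Tpm4, Rpl6 and Tmed2 (0.983 to 0.991), and Cspg4 to Bcl2, Slc18a3 and Tomm20 (0.951 to 0.972).

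The dose comparisons asked what the extract changed within astrocytes. None of the 9 member probe sets above the filter in astrocytes differed 2-fold from the untreated array at any dose, with 1 array on each side and therefore no test. Among all 4252 probe sets above the filter, 2.0% did so at 1 µg/ml, 6.51% at 10 µg/ml and 25.6% at 100 µg/ml. The member changes ran from -0.57 to 0.03 log2 at 1 µg/ml (median -0.17, against -0.01 for all probe sets), from -0.70 to 0.14 at 10 µg/ml (median -0.27, against -0.10), and from -0.69 to 0.42 at 100 µg/ml (median -0.34, against -0.26). The 3 comparisons share the untreated array.

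At 100 µg/ml the members went in different directions around that shift of all probe sets. Mbp had its highest astrocyte signal there, 5222 against 3895 untreated, a log2 change of 0.42, or 0.68 relative to the median probe set. Mobp had its lowest, 166 against 268 untreated at the brightest probe set (-0.69, or -0.43 relative to the median), and so did Ugt8, at 522 against 801 (-0.62, or -0.36). Cnp was also at its lowest, 1532 against 1933 (-0.34, or -0.07). Mag and Pmp22 stood at -0.19 and 0.00, and Cspg4 at -0.01. These are sizes between single arrays that lie under 2-fold, and the 3 astrocyte arrays at 0, 1 and 10 µg/ml spanned 3232 to 3895 for Mbp, 257 to 268 for Mobp and 754 to 818 for Ugt8.

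At 10 µg/ml the lowest member was Pmp22, at 1710 against 2785 untreated (-0.70 log2), while Cnp was highest, at 2129 against 1933 (0.14). At 1 µg/ml the lowest was the second Mobp probe set, at 118 against 176, whereas the brightest Mobp probe set gave 262 against 268. Both Mag probe sets were lower at all 3 doses than untreated, by 0.19 to 0.47 log2, and relative to the median probe set the brightest Mag probe set was 0.07 higher at 100 µg/ml.

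Among members below the filter, where small signals make large ratios, 2 of 8 differed from untreated by 2-fold or more at 100 µg/ml, as did 16.0% of all 4488 probe sets below the filter in astrocytes. Mog stood at 89.2 at 1 probe set, against 22.4 untreated, with 30.2 and 37.9 at 1 and 10 µg/ml, whereas its other probe set stood at 48.3 against 44.9. Sox10 stood at 24.2, against 64.4 untreated. A dim Mobp probe set stood at 60.3 at 10 µg/ml, against 24.5 untreated, and at 38.5 at 100 µg/ml. It was the only 1 of the 8 at 2-fold at 10 µg/ml, as were 10.0% of all probe sets below the filter.

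A slope on log10 of the dose plus 1 was fitted across all 7 arrays, and no member probe set had a trend in astrocytes at an adjusted p below 0.05 (limma), nor at an unadjusted p below 0.05. Of all 4709 probe sets 20.6% had one. Of the 9 members, 7 slopes were below 0 and 2 above, from -0.34 ± 0.15 (SE) for the brightest Mobp probe set (adjusted p = 0.16) and -0.32 ± 0.14 for Ugt8 (0.151) to 0.25 ± 0.14 for Mbp (0.251). A p that misses the threshold with 4 doses of 1 array each does not show that a transcript stayed level. Slopes in astrocytes and neurons did not differ past the threshold for any member (lowest adjusted p = 0.501, limma). Only 1 of all 4709 probe sets passed this comparison, so it tells little about the members.

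**Figure D5:**
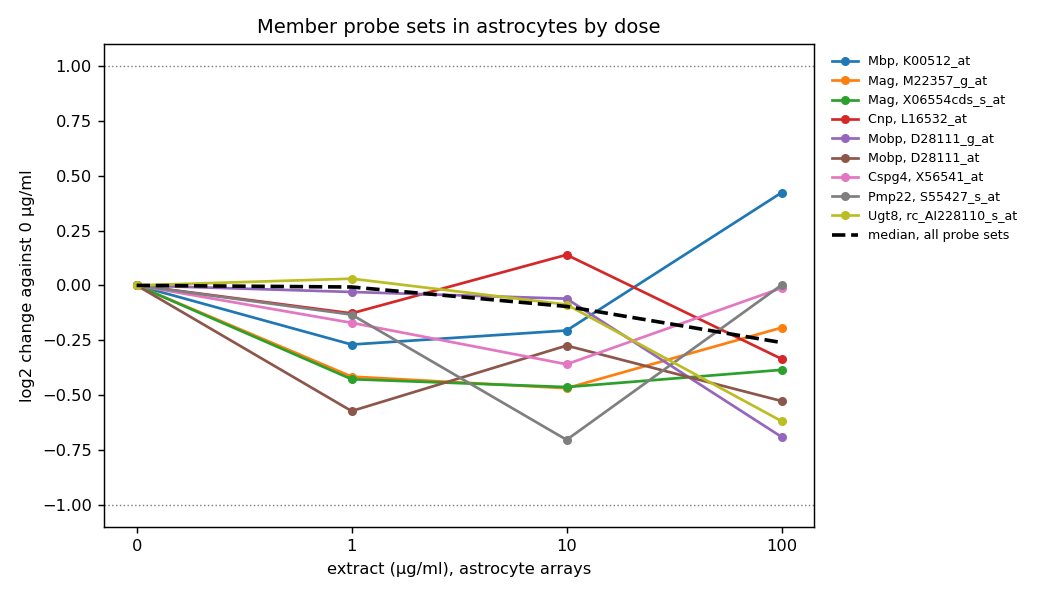
Log2 change of the 9 member probe sets above the filter on the astrocyte arrays at 1, 10 and 100 µg/ml against the untreated array, with the median of all probe sets as a dashed line and 2-fold as dotted lines. All lines stay within 2-fold, and at 100 µg/ml Mbp lies above the others at 0.42 and Mobp below at -0.69.

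Of the other lineage genes, 2 of 12 tested had a trend in astrocytes at their brightest probe set, against 20.6% of all probe sets. Id2, an inhibitor of helix-loop-helix factors that restrains oligodendrocyte maturation, gave 1770, 2005, 1723 and 324 in astrocytes at 0, 1, 10 and 100 µg/ml, with a slope of -1.24 ± 0.27 (SE, adjusted p = 0.0251, limma). This rested on the array at 100 µg/ml, without which the slope was -0.09 (adjusted p = 0.818), and it was also lost without the array at 1 µg/ml (0.0961) or any neuron array (0.113 to 0.116), with no signal filter (0.161) and with ranked doses (0.125). Car2 had a slope of -0.73 (adjusted p = 0.0451), which missed the threshold without the astrocyte array at 1 or 100 µg/ml (0.107 and 0.494), without any neuron array (0.114 to 0.117) with no floor (0.057), after quantile normalization (0.0896), with ranked doses (0.153) and with no signal filter (0.168). Pdgfra was 2-fold or more higher at 10 µg/ml (1.06 log2) and lower at 100 µg/ml (-1.60, or -1.34 relative to the median probe set), and had no trend call. The brightest probe sets of Cd9, Myrf, Enpp2 and Enpp6 stayed within 0.44 log2 of untreated at every dose. The second Enpp2 probe set changed by -1.25 log2 at 100 µg/ml, with a trend at an adjusted p of 0.0219 (limma), so the probe sets of Enpp2 disagreed.

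Over the same astrocyte arrays the summed fibroblast and meningeal markers were 69172, 60520, 54716 and 64028 at 0, 1, 10 and 100 µg/ml, and the summed members 10470, 9268, 8832 and 10972. The Schwann cell sum was 1373, 1338, 1307 and 2146, and the endothelial and pericyte sum 1628, 1837, 1317 and 1487. These 4 sums were lowest at 10 µg/ml, and those of the members and the Schwann cell list were highest at 100 µg/ml. Mbp carried the member sum at 100 µg/ml, with 5222 of 10972, against 3895 of 10470 untreated. The brightest probe sets of Mobp, Ugt8, Cnp, Mag, Sox10 and Cspg4 were lower there than untreated, and those of Pmp22 and Mog were higher. Egr2 carried the Schwann cell sum at 100 µg/ml, with a log2 change of 2.98 and a trend at an adjusted p of 0.0165 (limma). The other genes of that list did not rise together. At 100 µg/ml Prx stood at 171, against 201 untreated, Foxd3 at 90.3, against 155, and Ngfr at 1023, against 901. Pou3f1 was under the floor. The neuron sum was 2208, 2062, 1471 and 1038. The microglia and macrophage sum was 12346, 14623, 20160 and 15811, and its genes did not move together. Cd14, a receptor for bacterial lipopolysaccharide, gave 1488, 1922, 7418 and 8952, whereas at 100 µg/ml Aif1 stood at 251, against 1637 untreated, P2ry12 at 31.6, against 371.5, and C1qb at 1579, against 2722. The part of these in the member values was not tested.

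In neurons 5 member probe sets passed the filter, those of Cnp, Cspg4, Pmp22 and the 2 bright ones of Mag, and 1 of them differed 2-fold from the untreated array. It was the second bright Mag probe set, at 124 and 110 at 1 and 10 µg/ml, against 38.5 untreated (1.68 and 1.51 log2), with the untreated array standing low. The brightest Mag probe set showed no such difference, at 141 and 126 against 127. Among all 4453 probe sets above the filter in neurons, 0.561% differed 2-fold at 1 µg/ml, and at 10 µg/ml 0.764% did. The comparisons share the untreated array. Cnp, Cspg4 and Pmp22 stayed within 0.36 log2 at both doses. Mbp, under the filter in neurons, gave 72.3 at 10 µg/ml, against 49.8 untreated, and Sox10 gave 46.1 at 1 µg/ml, against 11.6 untreated.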

How the data were processed

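Total RNA was isolated with a silica-membrane kit and 100 ng was amplified and biotin-labelled in a two-cycle cRNA procedure, per the labels. The deposited values are signal intensities per probe set on a linear scale from GCOS, per the submitters' processing notes, whose version is not given there. Trimmed by 2%, array means ran from 500.731 to 500.874, so the deposited scale was kept. Of 8799 probe sets, 59 controls were left out.

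Symbols came from the platform annotation, looked up by gene ID in RefSeq (6985 of 7006 single-symbol probe sets found, 0 changed). Signals were raised to the 25th percentile of all signals (17.9) and log2 was taken. A probe set entered a comparison if its mean log2 signal was above the median of all signals (79.9). Cell types were compared with limma 3.58.1 in R 4.3.3 (trended prior, two-sided, Benjamini-Hochberg over all tested probe sets, threshold 0.05). Dose trends used a slope per cell type with 3 residual degrees of freedom. Single arrays were compared as log2 changes without a test. Precision is limited by having only 7 arrays. The fits were tested on simulated data.

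Members and lists were chosen with earlier results of these data known. The rule for named genes took every member, the lineage genes that were called between cell types or changed 2-fold in astrocytes (otherwise the 3 brightest of a list), the 3 markers of each list farthest apart between cell types, and the 3 genes closest to each member. Mal, Erbb3, Hes5, Sparcl1, Aqp4, Cd14, P2ry12, dimmer probe sets of listed genes and markers at the floor were named after their values were seen. A listed gene is represented by its brightest probe set. Upstream sequences are from RefSeq (GRCr8), where 7 of 9 members matched. Figures used Python 3.11.15 and matplotlib 3.10.9.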

Additional observations from a re-analysis of the deposited data

Results flagged for a closer look

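Among 32 astrocyte profiles of members and lineage genes, 3 had 1 array farther from the other 3 than Dixon's critical value at the 95% level allows, and chance flags about 1 in 20 such profiles. For Mobp it was the array at 100 µg/ml at the brightest probe set, with a signal of 165.8 against 257 to 268 on the others. For Id2 it was the same array, at 324.3 against 1723 to 2005. For Mag it was the untreated array at the second bright probe set, at 515.5 against 374 to 395. The arrays are at different doses, so a dose effect and a stray array cannot be told apart.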

How the results depend on the processing

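Between cell types, the calls of Mbp, Mobp, Mag, Cnp, Ugt8, Myrf, Enpp2 and Enpp6 held under each alternative they entered (a constant prior, quantile normalization, dose as a block at the 3 shared doses, the floor or the filter dropped, a stricter filter at the 75th percentile, and each array left out). Mbp ran from 5.94 to 6.26 log2. The count of called member probe sets was 5 of 5 entering with the filter at the 75th percentile, where fewer were tested, and 7 of 9 with a constant prior, which lost Pmp22 (adjusted p = 0.0513); it was 7 to 8 with an array left out. When probe sets were averaged per gene, 4 of 6 genes were called, and Mobp no longer passed the filter. The number of arrays limits every value, and dim probe sets lie near the floor.

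Members at 2-fold with no filter numbered 1 and 2 in astrocytes at 10 and 100 µg/ml and 2 in neurons at 1 µg/ml. In neurons the 1 probe set of Mag was not counted with the filter at the 75th percentile or after quantile normalization (0 at 1 and at 10 µg/ml) or against the mean of both lower doses (0 at 10 µg/ml).

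Differences that missed the threshold changed sign for Cryab (-0.22 with dose as a block, -0.10 after quantile normalization, -0.22 to 0.17 with an array left out), Qdpr (-0.065 with dose as a block, -0.065 to 0.0548 with an array left out) and Sirt2 (-0.19 to 0.15 with an array left out). Slopes changed sign after quantile normalization for Mag (0.0794 and 0.0052 at the 2 bright probe sets) and Mobp (0.0575 at the second), and with ranked doses for Cspg4 (-0.0224). With an array left out, slopes ran from -0.16 to 0.18 for Cnp, -0.33 to 0.11 for Cspg4, -0.38 to 0.14 and -0.37 to 0.0278 for the 2 Mag probe sets, -0.14 to 0.42 for Mbp, -0.26 to 0.0127 for the second Mobp probe set and -0.69 to 0.11 for Pmp22. No member slope passed the threshold under any of these.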
